A study of Mus musculus with 2 samples.

Results

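Cd8a, Cd8b1, Cd4 and Lag3 encode the coreceptors of T cells and a homologue of CD4, and they are 4 of the 31053 genes counted in this single-cell RNA sequencing series of mouse spleen dendritic cells (DC). They were taken by gene symbol, each symbol matched 1 row in both count matrices, and all 4 had counts in both libraries. L-cDC were tdTomato+ conventional DC (cDC) and were set against M-cDC, which were tdTomato- cDC, both sorted from spleen, the donors being naive Il7r-cre; Rosa26-lsl-tdTomato mice of 7 to 9 weeks kept free of specific pathogens. In such mice tdTomato marks cells that express, or descend from cells that expressed, the Il7r-driven Cre recombinase. L-cDC and M-cDC thus came from mice of the same genotype and were separated by the reporter. CD11c-bearing cells had been enriched with beads and sorted, and the series asks how cDC1 and cDC2 of each kind compare. Each group was 1 library, the number of mice behind it is not given in the sources used here, and no difference below could be set against replicates or tested.

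CD8 and CD4 sit on T cells beside the antigen receptor, where CD8 binds MHC class I and CD4 binds MHC class II on the presenting cell, and both carry the kinase Lck on their tails. CD8 is a pair of chains. On most cytotoxic T cells an alpha chain (Cd8a) pairs with a beta chain (Cd8b1), while mouse spleen cDC1 are known for carrying CD8 as a pair of alpha chains, and CD4 has long been used as a surface marker of a large subset of mouse spleen cDC2. LAG-3 binds MHC class II as CD4 does, acts as an inhibitory receptor on activated T and NK cells, and is also known on plasmacytoid DC (pDC).

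All 4 genes lie on mouse chromosome 6 (GRCm38 coordinates from the GENCODE vM21 annotation), as pairs of neighbours with no other protein-coding gene between the members of a pair. Cd8b1 (ENSMUSG00000053044) spans chr6:71322788-71337494 and Cd8a (ENSMUSG00000053977) chr6:71373427-71379173, both on the plus strand with 35932 bases between them. Cd4 (ENSMUSG00000023274) spans chr6:124864692-124888221 and Lag3 (ENSMUSG00000030124) chr6:124904361-124911705, both on the minus strand with 16139 bases between them. No annotated gene overlapped any of them. Lck is known to bind the cytoplasmic tails of CD4 and CD8 alpha at a pair of cysteines with 1 residue between them (Cys-X-Cys). Codons for this motif were searched in the coding sequence of every annotated coding transcript, and the matches are printed here 5′ to 3′ with the 3 codons in capitals, to show which of the members carry them.
Cd8a-201: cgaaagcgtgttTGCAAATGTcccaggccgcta
Cd4-201: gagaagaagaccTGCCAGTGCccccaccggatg
The Cd8a stretch begins its first cysteine at codon 227 of 247 and is joined from exons 4 and 5 (chr6:71375893-71376866, plus strand). The Cd4 stretch begins it at codon 444 of 457 and is joined from exons 9 and 10 (chr6:124866269-124866629, minus strand). No Cys-X-Cys codons were found in the shorter Cd8a-202 transcript of 222 codons, in Cd8b1-201 of 213 codons or in Lag3-201 of 521 codons. The 3′ counts do not tell Cd8a-201 from Cd8a-202.

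Transcripts were counted by unique molecular identifiers (UMIs), 40170515 over 4939 barcodes in L-cDC and 52973960 over 6674 in M-cDC. Filters on genes per cell, mitochondrial share and doublet score left 3943 L-cDC cells (median 8573 UMIs) and 5600 M-cDC cells (median 7664), and 5 kept barcodes in each library were shared with the other. Cells were clustered without the 4 genes and named from marker lists as cDC1-like (205 L-cDC and 711 M-cDC cells), cDC2-like (159 and 1013), mature Ccr7+ DC-like (2767 and 3272), cycling-like (77 and 280), macrophage-like (51 and 25), NK cell-like (199 and 1) and B cell-like (53 and 0). A further cluster had markers of both pDC and cDC2 among its leading genes and is called the Cd209d+ Siglech+ cluster (239 and 212 cells). One cluster within the mature-like cells, led by Ryr3 and Mdk, is described apart (176 and 345 cells). Clusters of 279 shallow or rare cells stayed unnamed. In mature-like cells of L-cDC a cluster led by Clu and Nrp2 held 354 cells, against 1 cell in M-cDC.

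Levels below are CPM, the UMIs of a gene per 1000000 UMIs summed over the cells named, with exact Poisson 95% intervals in parentheses. Ratios are L-cDC over M-cDC with exact conditional binomial 95% intervals, and a share of cells has an exact Clopper-Pearson 95% interval. All intervals cover counting error only. A gene entered a comparison when it reached 20 CPM in the higher library and 50 UMIs over both, and 1.5-fold is the size used to count differences. The kit counts transcripts at their 3′ ends, so UMI levels are not scaled by length, and capture can still differ between genes.

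Over all kept cells Cd8a and Cd4 were at nearly the same level in both libraries, while Cd8b1 and Lag3 were higher in L-cDC. Cd8a stood at 60.1 CPM (57.6 to 62.6) in L-cDC, against 58.9 CPM (56.7 to 61.1) in M-cDC, a ratio of 1.02 (0.965 to 1.08). Cd4 stood at 11.6 CPM in L-cDC, against 11.4 CPM in M-cDC, a ratio of 1.02 (0.895 to 1.16). These nearly equal totals came from different cells.
The cDC1-like cells gave 32.5% of all Cd8a UMIs in L-cDC, against 72.9% in M-cDC, while the Cd209d+ Siglech+ cluster gave 36.9% in L-cDC, against 4.20% in M-cDC. For Cd4 the cDC2-like cells gave 27.1% of UMIs in L-cDC, against 68.7% in M-cDC, and the Cd209d+ Siglech+ cluster gave 41.3% and 8.96%. The cluster held 6.06% of the cells in L-cDC, against 3.79% in M-cDC, so its part of both genes in L-cDC was well above its part of the cells.
Cd8b1 stood at 6.50 CPM (5.70 to 7.38, from 238 UMIs) in L-cDC, against 0.811 CPM (0.576 to 1.11, from 39 UMIs) in M-cDC, a ratio of 8.02 (5.70 to 11.6). Lag3 stood at 22.3 CPM in L-cDC, against 8.77 CPM in M-cDC, a ratio of 2.54 (2.25 to 2.86). The Cd209d+ Siglech+ cluster gave 76.9% of Cd8b1 UMIs and 66.7% of Lag3 UMIs in L-cDC, against 35.9% and 40.8% in M-cDC. NK cell-like cells gave a further 17.2% of Lag3 UMIs in L-cDC.

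**Figure D1:**
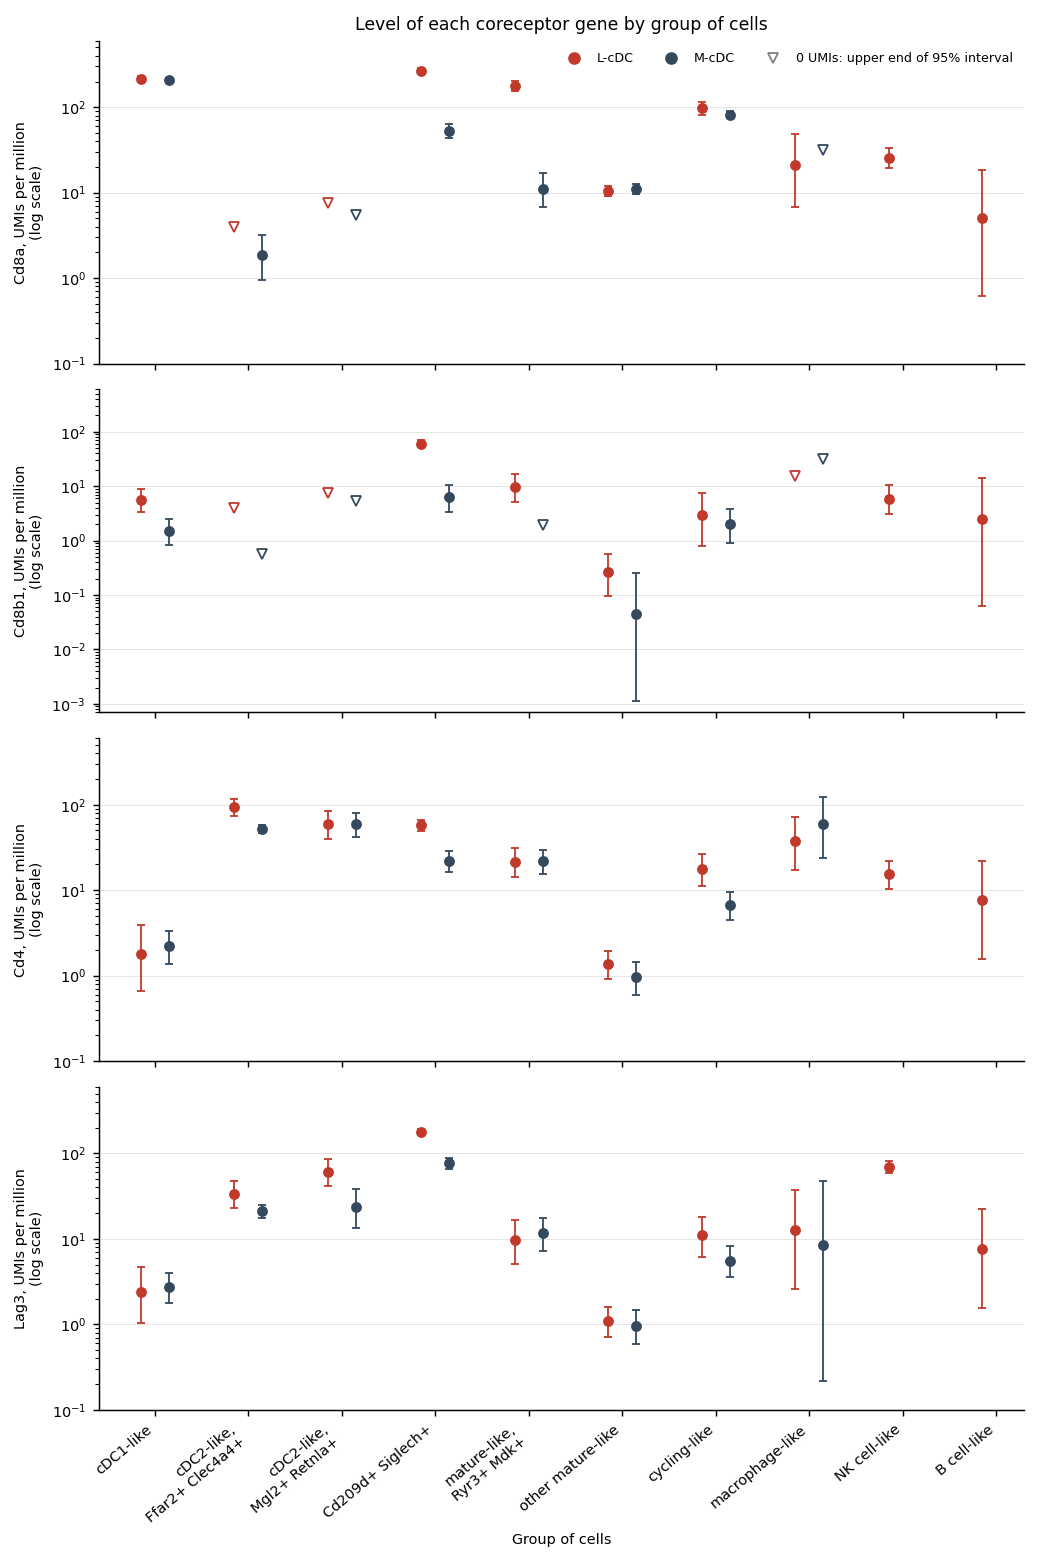
Level of Cd8a, Cd8b1, Cd4 and Lag3 (CPM, log scale) in each group of cells, L-cDC left of M-cDC, 1 point per library with its exact Poisson 95% interval and an open triangle at the upper end of the interval where no UMI was counted. Cd8a lies at 214 and 207 CPM in cDC1-like cells and further apart in the Cd209d+ Siglech+ cluster at 267 and 52.9 CPM.

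Cd8a, the alpha chain, was high in cDC1-like cells of both libraries, at levels close to each other. It stood at 214 CPM (199 to 230) in L-cDC, against 207 CPM (198 to 216) in M-cDC, with a ratio of 1.03 (0.949 to 1.13), a log2 ratio of 0.05. The interval holds no difference and leaves out 1.5-fold in both directions. It left out no difference, with Cd8a higher in L-cDC, in 3 alternatives, at log2 ratios of 0.14 (0.02 to 0.26) with a minimum of 200 genes per cell, 0.15 (0.03 to 0.27) with doublet-like cells kept and 0.35 (0.07 to 0.62) with each cell thinned to 3000 UMIs. With each library clustered alone the log2 ratio was -0.10 (-0.23 to 0.02). Of 4741 genes compared in cDC1-like cells, 1.03% were past 1.5-fold in either direction. Cd8a was the only member to enter that comparison and was not among them.
At least 1 Cd8a UMI was found in 85.9% of cDC1-like cells of L-cDC (176 cells, 80.3 to 90.3%) and in 74.4% of those of M-cDC (529 cells, 71.0 to 77.6%). The cells differed in depth, with medians of 16075 UMIs in L-cDC, against 14093 in M-cDC. When each cell was thinned to 3000 UMIs the shares were 48.3% (41.3 to 55.4) in L-cDC, against 38.7% (35.1 to 42.4) in M-cDC, and 8 M-cDC cells were too shallow to enter. The higher share in L-cDC thus held at matched depth, where the log2 ratio of the CPM of the same thinned cells was the 0.35 given above. Without thinning the interval of the CPM ratio holds no difference, so no order between the libraries is read from the shares.
In cDC2-like cells, which should lack Cd8a, a Cd8a UMI was found in 0 of 159 cells in L-cDC, where a limit of 3 counts allows a share of cells with a UMI of up to 1.89%, and in 0.888% in M-cDC (9 cells), at median depths of 8322 and 6855 UMIs. A cDC1-like cell most often held 2 to 4 Cd8a UMIs (38.5% of cells in L-cDC, against 37.3% in M-cDC), and the highest held 20 in L-cDC, against 16 in M-cDC.

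Cd8b1, the beta chain, was nearly absent from cDC1-like cells. It stood at 5.68 CPM (3.42 to 8.88, 19 UMIs in 10 cells) in L-cDC, against 1.5 CPM (0.841 to 2.48, 15 UMIs in 12 cells) in M-cDC. The ratio was 3.78 (1.82 to 8.0), but 1 L-cDC cell held 36.8% of the L-cDC UMIs and the gene did not reach the minimum for the comparison.
For every 100 Cd8a UMIs, cDC1-like cells held 2.65 Cd8b1 UMIs (1.59 to 4.17) in L-cDC, against 0.726 (0.410 to 1.20) in M-cDC. Cd4 and Lag3 were both close to 0 in the same cells. Cd4 was at 1.80 CPM (6 UMIs) in L-cDC, against 2.20 CPM (22 UMIs) in M-cDC, and Lag3 at 2.39 CPM (8 UMIs) in L-cDC, against 2.71 CPM (27 UMIs) in M-cDC. Of the cDC1-like cells, 159 of 205 in L-cDC held exactly 1 of the 4 genes, as did 484 of 711 in M-cDC.

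**Figure D2:**
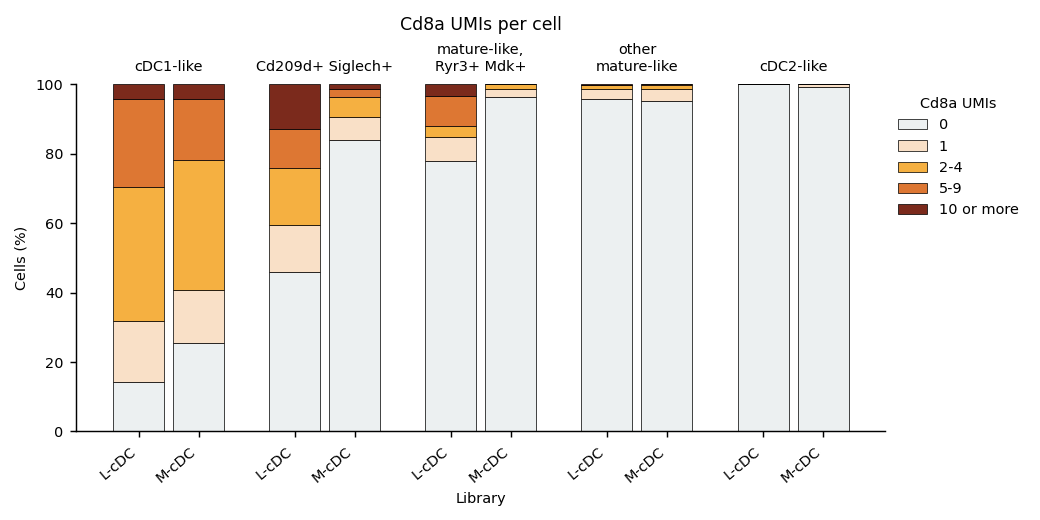
Share of cells (%) by their number of Cd8a UMIs in 5 groups of cells, L-cDC left of M-cDC in each pair of stacked bars. Cells with 10 or more Cd8a UMIs make up 13.0% of the Cd209d+ Siglech+ cluster in L-cDC, against 1.42% in M-cDC, and 4.39% and 4.22% of cDC1-like cells.

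In cDC2-like cells the pattern was the reverse, with Cd4 and Lag3 present and the CD8 chains at or near 0. Cd8a had no UMI in L-cDC and 12 UMIs (1.67 CPM) in M-cDC, and Cd8b1 had none in either. Cd4 stood at 81.3 CPM (67.1 to 97.5, 115 UMIs) in L-cDC, against 52.4 CPM (47.2 to 58.0, 376 UMIs) in M-cDC, a ratio of 1.55 (1.25 to 1.92) and a log2 ratio of 0.63. Lag3 stood at 43.1 CPM (33.0 to 55.4, 61 UMIs) in L-cDC, against 21.3 CPM (18.1 to 25.0, 153 UMIs) in M-cDC, a ratio of 2.02 (1.48 to 2.74) and a log2 ratio of 1.02. Both members that could be compared were therefore past 1.5-fold and higher in L-cDC, where 5.05% of the 5403 genes compared were past 1.5-fold in that direction. The median log2 ratio of all compared genes was -0.05. The ratio of Cd4 lies close to 1.5-fold and was under it in 3 alternatives, the lowest at 0.33 on the log2 scale with cells classed by their marker means. The log2 ratio of Lag3 ranged over 0.50 to 2.22 under the alternatives and was under 1.5-fold in 1 of them, at 0.50 (-0.23 to 1.16) with at most 5% mitochondrial UMIs. With doublet-like cells kept it was 0.62 (-0.05 to 1.24), an interval that also holds no difference.
Cd4 UMIs were found in 37.1% of cDC2-like cells of L-cDC (59 cells, 29.6 to 45.1%), against 24.1% of those of M-cDC (244 cells, 21.5 to 26.8%), and in 20.3% and 11.5% of cells thinned to 3000 UMIs. Lag3 UMIs were found in 23.9% of cDC2-like cells of L-cDC and 12.3% of those of M-cDC, and in 15.4% and 6.18% of thinned cells. In cDC1-like cells, which were deeper, the shares were 2.44% and 2.67% for Cd4, and 3.90% and 3.66% for Lag3, in L-cDC and M-cDC. The shares in cDC2-like cells were several times this background in both libraries.

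The cDC2-like class joined a cluster led by Ffar2 and Clec4a4 with a smaller one led by Mgl2 and Retnla. In the Ffar2+ Clec4a4+ cluster Cd4 was at 93.2 CPM (74.5 to 115) in L-cDC, against 51.7 CPM (46.3 to 57.6) in M-cDC, a ratio of 1.80 (1.40 to 2.29). In the Mgl2+ Retnla+ cluster it was at 58.9 CPM (39.5 to 84.6) in L-cDC, against 59.0 CPM (42.1 to 80.3) in M-cDC, a ratio of 0.999 (0.597 to 1.65).
The interval of the Cd4 ratio left out 1 in the larger of the clusters and held it in the smaller. The intervals of the Lag3 ratio left out 1 in both. Lag3 was at 33.6 CPM in L-cDC, against 21.1 CPM in M-cDC in the Ffar2+ Clec4a4+ cluster, a ratio of 1.59 (1.04 to 2.37). In the Mgl2+ Retnla+ cluster it was at 61.0 CPM (41.1 to 87.0) in L-cDC, against 23.6 CPM (13.5 to 38.3) in M-cDC, a ratio of 2.58 (1.36 to 5.08). The intervals of the 2 clusters overlap for both genes, and the difference between the clusters was not tested.
Of cDC2-like cells with Cd4, 30.5% in L-cDC (18 of 59) and 16.4% in M-cDC (40 of 244) also had a Lag3 UMI. Of those without Cd4, 20 of 100 in L-cDC had one, against 11.1% in M-cDC.

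The Cd209d+ Siglech+ cluster was the only group of cells in which all 4 genes reached 20 CPM in L-cDC, Cd8b1 through few cells as given below, and all 4 were higher in L-cDC than in M-cDC. Its cells had pDC genes (Siglech at 125 CPM in L-cDC, against 30.2 CPM in M-cDC, and Tcf4 at 785 and 511 CPM) beside Cd209d, a lectin gene of the DC-SIGN family (1038 and 592 CPM). The libraries therefore differed within the cluster in these markers too. Depth was also unequal, with medians of 12113 UMIs in L-cDC, against 10316 in M-cDC.
Cd8a stood at 267 CPM (249 to 287, 812 UMIs) in L-cDC, against 52.9 CPM (43.8 to 63.3, 119 UMIs) in M-cDC, a ratio of 5.06 (4.17 to 6.18) and a log2 ratio of 2.34. Cd8b1 stood at 60.3 CPM (51.9 to 69.7, 183 UMIs) in L-cDC, against 6.22 CPM (3.40 to 10.4, 14 UMIs) in M-cDC, a ratio of 9.69 (5.63 to 18.1) and a log2 ratio of 3.28. Of the 183 UMIs of Cd8b1, 129 lay in 14 L-cDC cells with Siglech and Ly6d UMIs. Without the cells that had a Ly6d UMI, Cd8b1 was at 19.0 CPM in L-cDC, against 6.26 CPM in M-cDC, a ratio of 3.03 (1.66 to 5.91), and under the minimum of 20 CPM. The L-cDC level of Cd8a in this cluster was above that of cDC1-like cells, and their intervals do not overlap.
Cd4 stood at 57.6 CPM (49.4 to 66.9, 175 UMIs) in L-cDC, against 21.8 CPM (16.1 to 28.8, 49 UMIs) in M-cDC, a ratio of 2.65 (1.92 to 3.71) and a log2 ratio of 1.40. Lag3 stood at 179 CPM (164 to 195, 544 UMIs) in L-cDC, against 76.5 CPM (65.5 to 88.8, 172 UMIs) in M-cDC, a ratio of 2.34 (1.97 to 2.80) and a log2 ratio of 1.23. For each gene the intervals of the libraries do not overlap.
All 4 were past 1.5-fold and higher in L-cDC, where 5.15% of the 5298 genes compared were past it in that direction, and Cd8b1 reached the minimum of 20 CPM only in L-cDC and only with the Ly6d+ cells. In the order of all compared genes, 3 genes had a higher ratio than Cd8b1, 7 than Cd8a, 31 than Cd4 and 46 than Lag3.

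**Figure D3:**
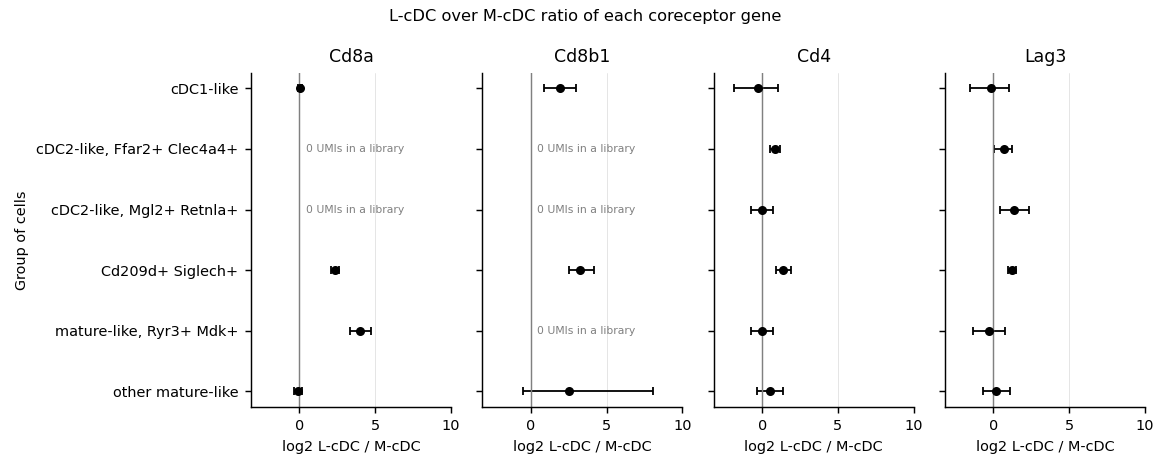
Ratio of L-cDC over M-cDC (log2) for each of the 4 genes in 6 groups of cells, with exact conditional binomial 95% intervals and a line at no difference. In the Cd209d+ Siglech+ cluster all 4 intervals lie above the line, from 1.23 for Lag3 to 3.28 for Cd8b1, and in the Ryr3+ Mdk+ cluster that of Cd8a does, at 3.99, while Cd8b1 had no UMI in M-cDC there and has no point.

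Detection in single cells of this cluster followed the levels. A Cd8a UMI was found in 54.0% of cells in L-cDC (129 cells) and 16.0% in M-cDC (34 cells), and in 33.3% and 7.58% after thinning. A Lag3 UMI was found in 72.4% of cells in L-cDC (173 cells) and 39.6% in M-cDC (84 cells), and in 36.7% and 16.1% after thinning. Cd4 was found in 34.3% of cells in L-cDC, against 17.9% in M-cDC, and in 13.1% and 6.16% after thinning.
The differences in share thus held at matched depth for these 3 genes, and the shares lay above those given for Cd8a in cDC2-like cells and for Cd4 and Lag3 in cDC1-like cells. Cd8b1 was concentrated in few cells, 32 in L-cDC (13.4%) and 7 in M-cDC (3.30%), and 1 L-cDC cell held 28 of its UMIs.
Of the 239 L-cDC cells, 30 held none of the 4 genes, 64 held 1, 90 held 2, 48 held 3 and 7 held all 4. Of the 212 M-cDC cells, 95 held none, 80 held 1, 30 held 2, 5 held 3 and 2 held all 4. No cDC1-like, cDC2-like or Ryr3+ Mdk+ cell of either library held all 4.

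**Figure D4:**
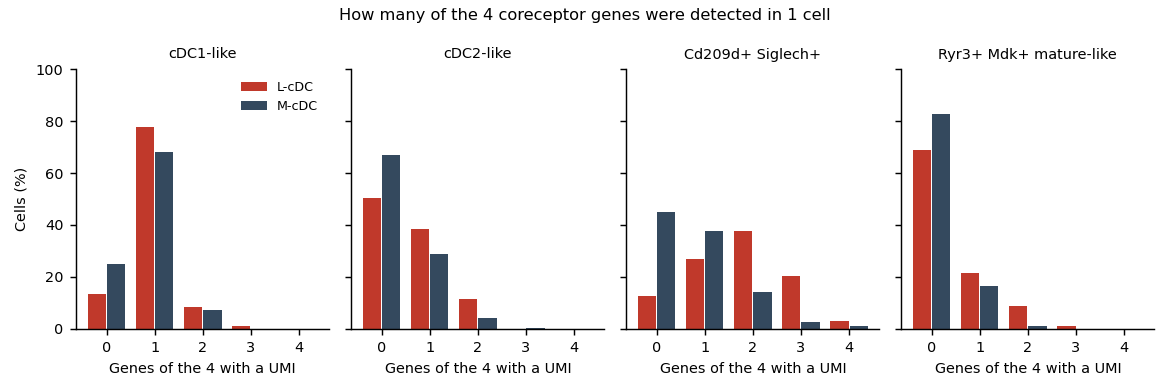
Share of cells (%) by how many of the 4 genes had at least 1 UMI in the cell, in 4 groups of cells, L-cDC left of M-cDC. In the Cd209d+ Siglech+ cluster the most frequent number is 2 in L-cDC (90 of 239 cells) and 0 in M-cDC (95 of 212 cells), and in cDC1-like cells it is 1 in both libraries.

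Cd8a and Lag3 were often found in the same cell of the cluster. In L-cDC 82.9% of cells with Cd8a had a Lag3 UMI, against 60.0% of cells without Cd8a, and in M-cDC the shares were 64.7% and 34.8%. All but 2 of the 32 L-cDC cells with Cd8b1, and all 7 such M-cDC cells, also had Lag3.
Cd4 did not follow Cd8a in L-cDC, where 30.2% of cells with Cd8a and 39.1% of cells without it had a Cd4 UMI. Il7r, the receptor gene whose Cre drives the reporter, was higher in the cells with Cd8a, at 280 CPM against 97.4 CPM in cells without Cd8a in L-cDC, and 136 CPM against 25.6 CPM in M-cDC. Cells with Cd8a were deeper, with medians of 12707 UMIs against 11122 in L-cDC, and 11249 against 10184 in M-cDC, and the part of depth in the higher Il7r was not tested.

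Within the cluster of L-cDC, Cd8b1 was higher in cells with the pDC gene Siglech, for the most part through 14 cells, and Cd8a was at a like level in cells with and without it. Cells with a Siglech UMI (104 in L-cDC, against 41 in M-cDC) held Cd8b1 at 124 CPM in L-cDC, against 8.82 CPM in M-cDC, a ratio of 14.0 (5.37 to 52.0). Cells without one (135 and 171) held Cd8b1 at 10.1 CPM in L-cDC, against 5.57 CPM in M-cDC, a ratio of 1.80 (0.781 to 4.41). Of the 166 Cd8b1 UMIs in L-cDC cells with Siglech, 129 lay in the 14 cells that also had Ly6d. The other 90 L-cDC cells with Siglech held Cd8b1 at 31.1 CPM, against 8.82 CPM in the 41 M-cDC cells, a ratio of 3.52 (1.26 to 13.6), and Cd8a at a ratio of 6.05 (3.76 to 10.3). The interval of the Cd8b1 ratio in cells with Siglech thus left out no difference with and without the Ly6d+ cells. It rests on 4 UMIs in M-cDC and does not cover the spread between cells. Most of the size of the L-cDC excess went with those 14 cells.
Cd8a was at 276 CPM in L-cDC, against 39.7 CPM in M-cDC in cells with Siglech, a ratio of 6.95 (4.34 to 11.9), and at 261 and 56.2 CPM in cells without, a ratio of 4.64. Cd4 had ratios of 2.56 (1.40 to 5.13) in cells with Siglech and 2.41 in cells without. Both genes were higher in L-cDC on either side of the split.
Lag3 was the exception. In cells with Siglech it was at 219 CPM in L-cDC, against 176 CPM in M-cDC, a ratio of 1.24 (0.968 to 1.61), and in cells without it was at 147 and 51.2 CPM, a ratio of 2.87 (2.25 to 3.69). Whether the ratios differ between the sides of the split was not tested. The split was chosen after the values were seen, and Siglech itself was more frequent in L-cDC.
A group of 14 L-cDC cells with both Siglech and Ly6d, a surface protein gene of lymphoid progenitors and pDC, held Cd8b1 at 845 CPM, Cd8a at 557 CPM and Lag3 at 236 CPM. In L-cDC cells with Cd8b1, Irf8, a transcription factor gene of cDC1 and pDC, was at 425 CPM, against 29.7 CPM in cells without it.

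The amount of beta chain relative to alpha chain was higher in this cluster than in cDC1-like cells of either library. The cluster as a whole held 22.5 Cd8b1 UMIs (19.1 to 26.5) per 100 Cd8a UMIs in L-cDC, against 11.8 (6.24 to 20.5) in M-cDC. Cells with Siglech held 44.7 (37.0 to 53.9) in L-cDC, against 22.2 (5.47 to 67.5) in M-cDC, and cells without it held 3.85 (2.23 to 6.24) and 9.90 (4.61 to 19.0). In L-cDC the cells without Siglech thus overlapped with cDC1-like cells, and those with Siglech did not.
Without the cells that had a Ly6d UMI the L-cDC value was 7.63 (5.67 to 10.1), and in the 14 cells with Siglech and Ly6d it was 152 (115 to 202). In the 90 L-cDC cells with Siglech and without Ly6d it was 12.9 (8.93 to 18.3), which lay below the 44.7 of all cells with Siglech and above the interval of cDC1-like cells.

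**Figure D5:**
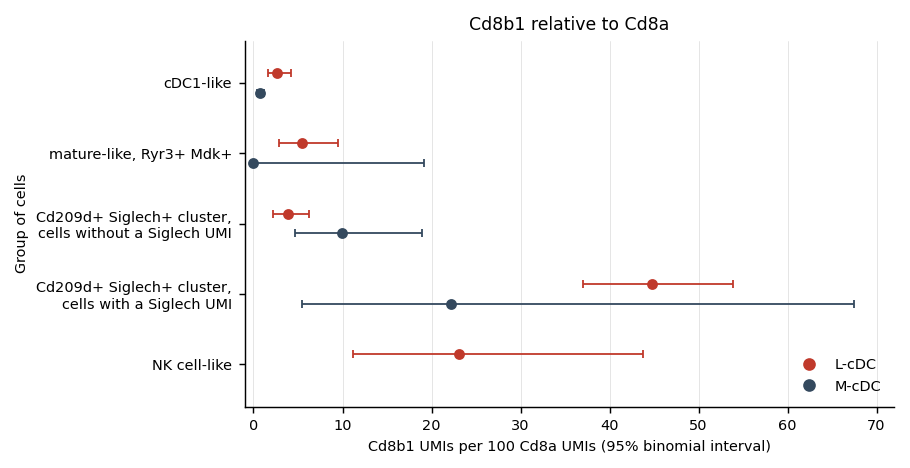
Cd8b1 UMIs per 100 Cd8a UMIs in 5 groups of cells, L-cDC above M-cDC, 1 point per library with its exact binomial 95% interval. Cells of the Cd209d+ Siglech+ cluster with a Siglech UMI stand at 44.7 in L-cDC, against 22.2 in M-cDC, and cDC1-like cells at 2.65 and 0.726.

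The Ryr3+ Mdk+ cluster of mature-like cells held Cd8a in L-cDC at 177 CPM (155 to 201, 238 UMIs) and in M-cDC at 11.1 CPM (6.89 to 17.0, 21 UMIs). The ratio was 15.9 (10.2 to 26.2), a log2 ratio of 3.99, and 1 of the 4935 genes compared in the cluster had a higher one. The cluster took its mature-like name from a marker score of 0.813, where other mature-like clusters scored 0.748 to 0.932. Its cDC2 score of 0.522 was the highest among the mature-like clusters. Ccr7 was at 961 CPM in L-cDC, against 772 CPM in M-cDC. There was almost no Xcr1, the chemokine receptor gene of cDC1 (3.72 and 5.30 CPM). The name was given to the cluster as a whole and not to its cells with Cd8a. With each library clustered alone, no L-cDC cluster had both Ryr3 and Mdk among its leading 10 genes, while 342 M-cDC cells formed one. The ratio thus rests on clustering the libraries together, and whether it compares like cells was not tested.
The Cd8a UMIs lay in 39 L-cDC cells (22.2%, at most 30 UMIs in a cell) and 13 M-cDC cells (3.77%, at most 4), and after thinning in 15.7% of cells in L-cDC, against 1.89% in M-cDC. Median depth was 7257 UMIs in L-cDC, against 5111 in M-cDC. Cd8b1 had 13 UMIs in 5 L-cDC cells and none in M-cDC, and the interval of its ratio begins at 4.28 and has no upper end.
Cd4 was level at 21.6 CPM in L-cDC, against 21.7 CPM in M-cDC, a ratio of 0.993 (0.595 to 1.64). Lag3 was at 9.67 CPM in L-cDC, against 11.7 CPM in M-cDC, a ratio of 0.829 (0.384 to 1.72). Of the members, Cd8a and Cd4 entered the comparison and Cd8a was past 1.5-fold, where 5.07% of all compared genes were past it and higher in L-cDC. Cd8a reached 20 CPM only in L-cDC.
Within this cluster of L-cDC the cells with and without Cd8a differed in the genes that gave the cluster its name. Cells with Cd8a had Ryr3 at 14.2 CPM, against 166 CPM in cells without, and Mdk at 147 CPM, against 263 CPM. They had Il7r at 356 CPM, against 233 CPM in cells without, and Sirpa, a surface receptor gene of cDC2, at 28.4 CPM, against 81.3 CPM. The cells with Cd8a were deeper, with a median of 10212 UMIs, against 6540 in cells without, and the part of depth was not tested.

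In the other mature-like cells together Cd8a was low, at 10.5 CPM (9.21 to 11.9) in L-cDC, against 11.0 CPM (9.70 to 12.5) in M-cDC, a ratio of 0.949 (0.791 to 1.14). It was found in 4.36% of cells in L-cDC, against 4.78% in M-cDC. Cd4 and Lag3 were at about 1 CPM, with Cd4 at 1.35 CPM in L-cDC, against 0.955 CPM in M-cDC and Lag3 at 1.09 and 0.955 CPM. Over the whole mature-like class Cd8a was at 19.7 CPM (18.0 to 21.5) in L-cDC, against 11.1 CPM (9.76 to 12.5) in M-cDC, a ratio of 1.78 (1.53 to 2.08), so that this difference went with the Ryr3+ Mdk+ cluster. No member reached the minimum for a comparison in the whole class.
Among the other mature-like clusters, the interval of the Cd8a ratio left out no difference only in those given below, in opposite directions. The cluster led by Ido1 was under the minimum CPM for a comparison, and the one led by Ppp1r1a, Ttc36 and Lyz1 under the minimum UMIs. The remaining intervals held no difference. Of these clusters, the one led by Itgb8 and Mab21l3 had a ratio of 1.17, and the one led by Fbxo2 and Txndc17 had 1.04. In the cluster led by Ido1 and Pla2g7 (526 L-cDC and 694 M-cDC cells) Cd8a was at 10.5 CPM (47 UMIs in 14 cells) in L-cDC, against 2.27 CPM (11 UMIs in 11 cells) in M-cDC, a ratio of 4.61 (2.35 to 9.85). One L-cDC cell held 19 of the 47 UMIs, and after thinning the shares of cells were 1.52% (0.660 to 2.98) in L-cDC, against 1.02% (0.411 to 2.09) in M-cDC.
A small mature-like cluster led by Ppp1r1a, Ttc36 and Lyz1 (99 L-cDC and 67 M-cDC cells) went the other way, with Cd8a at 21.4 CPM in L-cDC (11 UMIs in 5 cells) and 73.6 CPM in M-cDC (25 UMIs in 15 cells), a ratio of 0.291 (0.129 to 0.613). Its cells with Cd8a had Xcr1 at 339 CPM in L-cDC, against 218 CPM in M-cDC, and its cells without Cd8a at 6.1 and 28.3 CPM.

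In cycling-like cells Cd8a was at 97.0 CPM in L-cDC, against 82.1 CPM in M-cDC, a ratio of 1.18 (0.961 to 1.44). It was the only member compared there and was not past 1.5-fold, where 10.6% of 5519 genes were in either direction. Among cycling-like cells with an Xcr1 UMI it was at 191 CPM in L-cDC, against 146 CPM in M-cDC, a ratio of 1.31 (1.05 to 1.62). Cd4 was at 31.8 CPM in L-cDC, against 13.2 CPM in M-cDC in cycling-like cells without Xcr1, a ratio of 2.40 (1.33 to 4.30). Cd8a was at 21.2 CPM in L-cDC, against 9.93 CPM in M-cDC, in those cells without Xcr1. The highest Cd8a was thus on the side with Xcr1 and the highest Cd4 on the side without it.

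T, NK and B cell markers were counted beside the members, because the 4 genes are best known in lymphocytes. The 12 T cell markers together reached 16.8 CPM in L-cDC, against 8.89 CPM in M-cDC in the Cd209d+ Siglech+ cluster, 6.88 and 3.51 CPM in cDC1-like cells, 15.5 and 13.5 CPM in cDC2-like cells, and 17.1 and 14.3 CPM in the Ryr3+ Mdk+ cluster. They reached 1606 CPM in NK cell-like cells of L-cDC. In the Cd209d+ Siglech+ cluster 6 of the 12 were at 0 in L-cDC, against 8 of 12 in M-cDC, among them Cd3e and Cd3g in both.
Of the cells with a member UMI in that cluster, a UMI of a Cd3 gene was found in 3 of 129 with Cd8a, 1 of 32 with Cd8b1, 3 of 82 with Cd4 and 3 of 173 with Lag3 in L-cDC. In M-cDC it was found in 0 of 34, 0 of 7, 1 of 38 and 1 of 84. The 10 NK cell markers reached 54.0 CPM in L-cDC, against 77.8 CPM in M-cDC in the cluster, and the 8 B cell markers 57.6 and 53.8 CPM.
The NK cell-like cells of L-cDC had Lag3 at 69.3 CPM (58.3 to 81.8, in 32.7% of cells), Cd8a at 25.7 CPM (19.2 to 33.8), Cd4 at 15.3 CPM and Cd8b1 at 5.94 CPM. Of their 11 cells with Cd8a, 9 had a UMI of a Cd3 gene, as had all 6 with Cd8b1. With 1 such cell in M-cDC no comparison was made. Macrophage-like cells held Cd4 at 37.9 CPM (17.3 to 71.9) in L-cDC, against 59.4 CPM (23.9 to 122) in M-cDC, a ratio of 0.638 (0.211 to 2.02), and B cell-like cells held Cd8a at 5.06 CPM.

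Ordered by level over clusters of at least 20 cells, Cd8a in L-cDC was highest in the Cd209d+ Siglech+ cluster, followed by cDC1-like cells and the Ryr3+ Mdk+ cluster, whose intervals overlap, and then the NK cell-like cells. The cycling clusters with cDC1 genes were too small in L-cDC to enter this order. They held Cd8a there at 199 CPM in 19 cells and 118 CPM in 17 cells, above the NK cell-like cells. In M-cDC cDC1-like cells came first, ahead of the cycling clusters with cDC1 genes. Cd8b1 was highest in the Cd209d+ Siglech+ cluster of both libraries, clear of the next in L-cDC and not in M-cDC. In L-cDC 129 of the 183 Cd8b1 UMIs of the cluster lay in 14 cells with Siglech and Ly6d, and no order was made without them.
Cd4 had no clear leader in L-cDC, where the Ffar2+ Clec4a4+, Mgl2+ Retnla+, Cd209d+ Siglech+ and macrophage-like clusters overlapped with their neighbours in order. In M-cDC the macrophage-like cells and the cDC2-like clusters overlapped with each other. The cDC2-like clusters stood clear of the Cd209d+ Siglech+ cluster, and the macrophage-like cells, with 7 UMIs, overlapped with it too. Lag3 led in the Cd209d+ Siglech+ cluster of both libraries, clear of the NK cell-like cells in L-cDC and of the Mgl2+ Retnla+ cluster in M-cDC.

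Genes that work with the coreceptors in T cells were read from 7 lists, against a background of 1.03% of genes past 1.5-fold in either direction in cDC1-like cells, 8.74% in cDC2-like cells, 11% in the Cd209d+ Siglech+ cluster and 15.9% in the Ryr3+ Mdk+ cluster. Of 11 signalling partners, 7 were compared in the Cd209d+ Siglech+ cluster and 1 was past 1.5-fold, the kinase gene Fyn at 137 CPM in L-cDC, against 86.3 CPM in M-cDC, a log2 ratio of 0.66. Ptprc, which encodes the phosphatase CD45 that acts on Lck, was at 595 CPM in L-cDC, against 699 CPM in M-cDC. The median log2 ratio of the list was -0.23, against -0.07 for all compared genes. In cDC1-like cells 0 of 6 and in cDC2-like cells 0 of 7 were past 1.5-fold. Lck, the kinase that binds the Cys-X-Cys motif, was at most at 0.71 CPM in the cDC1-like, cDC2-like and Cd209d+ Siglech+ cells of both libraries.
Of the MHC class I ligands of CD8, 5 of 6 were compared in each of the cDC1-like, cDC2-like, Cd209d+ Siglech+ and Ryr3+ Mdk+ cells, and 0 were past 1.5-fold. The light chain gene B2m was the highest of them in the Cd209d+ Siglech+ cluster, at 2305 CPM in L-cDC, against 2054 CPM in M-cDC. Of the 8 MHC class II genes and other ligands of CD4 and LAG-3, Lgals3, a galectin gene, was at 240 CPM in L-cDC, against 376 CPM in M-cDC in cDC1-like cells, a log2 ratio of -0.65, and the other 5 compared were within 1.5-fold. Cd74, the invariant chain gene of MHC class II, was the highest of them at 20947 CPM in L-cDC, against 21719 CPM in M-cDC. Adam10 and Adam17, whose proteases cut LAG-3 from the cell surface, were within 1.5-fold in the same 4 groups of cells.
Of 18 factors known to act at the Cd4 and Cd8 loci in T cells, 10 were compared in the Cd209d+ Siglech+ cluster. Of these, 1 was past 1.5-fold, a share close to the 11% of all compared genes. It was Tcf7, a factor gene of early T and innate lymphoid cells, at 29.0 CPM in L-cDC, against 10.7 CPM in M-cDC, a log2 ratio of 1.44. Tcf7 reached the minimum of 20 CPM only in L-cDC. Runx3, which represses Cd4 and favours Cd8 in T cells, was at 110 CPM in L-cDC, against 107 CPM in M-cDC there, 59.8 and 53.6 CPM in cDC1-like cells, and 175 and 165 CPM in cDC2-like cells. Its level was thus higher in cDC2-like than in cDC1-like cells of both libraries. Zbtb7b, the CD4 lineage factor of T cells, was at 14.4 and 12.5 CPM in cDC1-like cells and 17.0 and 15.5 CPM in cDC2-like cells. Satb1 in cDC2-like cells was at 25.4 CPM in L-cDC, against 42.9 CPM in M-cDC, a log2 ratio of -0.75, and was the only 1 of 7 compared there past 1.5-fold.
Of 13 factors of DC lineages, 12 were compared in the Cd209d+ Siglech+ cluster. Irf8 was at 83.3 CPM in L-cDC, against 22.7 CPM in M-cDC, a log2 ratio of 1.88, and Tcf4, the pDC factor, at a log2 ratio of 0.62. As given above, Irf8 in L-cDC was far higher in cells with Cd8b1, and closer to the M-cDC level in cells without it. The Irf8 difference of the whole cluster thus went largely with few cells. Batf3, a factor of cDC1, was lower in L-cDC at 51.4 CPM, against 101 CPM in M-cDC, a log2 ratio of -0.98. Of 16 other receptors known from T cells, 4 were compared in the cluster and Havcr2, which encodes TIM-3, was past 1.5-fold at 43.5 CPM in L-cDC, against 26.2 CPM in M-cDC. In cDC1-like cells 0 of 7 factors at the loci, 0 of 10 DC lineage factors and 0 of 3 other receptors were past 1.5-fold. In cDC2-like cells Irf8 and Tcf4 were, 2 of 12 DC lineage factors and both higher in L-cDC, with 0 of 6 MHC class II and other ligands and 0 of 5 other receptors. In the Ryr3+ Mdk+ cluster 15.9% of all compared genes were past 1.5-fold in either direction. There Lgals3, of 5 ligands compared, and Tcf4, of 12 DC lineage factors, were past it and higher in L-cDC. Ptprc, of 5 signalling partners, and Ikzf1, of 10 factors at the loci, were past it and lower. So were Zeb2, Notch2 and Klf4, of the 12 DC lineage factors, and Cd7 and Icos, of 4 other receptors.
In the Cd209d+ Siglech+ cluster the median log2 ratio of the compared genes was 0.17 for the MHC class I list, 0.02 for the MHC class II and other ligands, 0.03 for the shedding proteases, 0.21 for the factors at the Cd4 and Cd8 loci, 0.03 for the DC lineage factors and -0.14 for the other T cell receptors.

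Likeness between genes was measured as Pearson's r of log2(CPM + 1) over the 35 sums of a cluster and library with at least 20 cells, among 8281 genes, as a description of sums that share libraries and depth. The genes most like Cd8a were Cd8b1 (r of 0.71), Cd24a (0.69), Ctla2b (0.64), Clec9a (0.63) and Mvb12a (0.63). Among those most like Cd8b1 were Ly6c2 (0.75), Apod (0.72), Cd8a (0.71) and Il1rl2 (0.62). The CD8 chains were thus each among the 5 genes most like the other. Most of the 35 sums held 0 or 1 UMI of Cd8b1, so its values of r rest on few of them.
The genes most like Cd4 were Tns1 (0.88), Slc43a2 (0.88), Gfra2 (0.87), Ubl3 (0.86) and Stambpl1 (0.86). Those most like Lag3 were its neighbour Cd4 (0.84), Cd33 (0.83), Ifit3 (0.81), Dab2 (0.81) and Slc2a3 (0.80). Cd8a had an r of -0.20 with Cd4 and 0.00 with Lag3.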

How the data were processed

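Per the labels, 1 library per group was made from CD11c-enriched, sorted spleen cells with a 10x Genomics 3′ kit and read on an MGI platform. The matrices were deposited as raw UMI counts. Per the file headers they come from Cell Ranger 6.1.2, and the submitters' processing notes name the build GRCm38 (mm10). The deposited files of other content hold gene identifiers and barcodes. Both libraries list the same 31053 genes, and every row names a gene. Filters, aligner settings and annotation release are not given in the sources used here.

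Barcodes with fewer than 500 genes or over 10% mitochondrial UMIs were removed. Scrublet set doublet thresholds of 0.635 in L-cDC and 0.258 in M-cDC, and the lower was applied to both, removing 143 and 248 cells. Scanpy 1.11.5 clustered the cells on 2000 variable genes without the 4 members, 30 components and 15 neighbours at Leiden resolution 1.0 (igraph 0.11.9, Python 3.11.15), with scipy 1.17.1 and pandas 2.3.3 for sums and intervals. Clusters took the name of the marker list with the highest scaled score, of at least 0.7, with 3 markers at 10 CPM, a threshold set after the scores were seen. Clusters whose median depth was below that of the libraries divided by 3 and that had no marker among their leading 10 genes stayed unnamed. No cluster had at least 2 leading markers each of pDC and cDC2. The Cd209d+ Siglech+ cluster, which had 1 of each, was kept apart because it scored at least 0.7 on both lists (0.899 for pDC and 0.734 for cDC2). Its pDC score was also the highest of any cluster.

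UMIs were summed per class and library. With 1 library per group no test was made and no p-value is given. The intervals were run on simulated Poisson counts, the model they assume, so that run cannot show how they hold where few cells carry most UMIs of a gene. The text names the 4 members, for each the 5 genes most like it (1 of which is not reported here), and of each gene list some of the 4 with the highest level. List genes named for passing 1.5-fold, and Lck, Zbtb7b, Satb1 and Il7r, were chosen after their values were seen. Members and lists were chosen with earlier results of these data known. The Cd209d+ Siglech+ and Ryr3+ Mdk+ cluster comparisons of Cd8a and Cd8b1 and the splits by Siglech, Ly6d and Xcr1 were added after seeing the data.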

Additional observations from a re-analysis of the deposited data

How the results depend on the processing

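No paired analysis was possible because each group was 1 library. Of 299 values under alternatives, over 20 results, 254 moved by less than their counting error and 45 moved further. A reversal was counted only for the 7 ratios past 1.5-fold, and 0 of their values reversed. The Cd8a ratio in cDC1-like cells, close to no difference, was not among these and changed sign in an alternative, as given below. Of 110 alternative values of the 7 ratios past 1.5-fold, 105 stayed past it. The exceptions were Cd4 in cDC2-like cells at log2 ratios of 0.48 with each library clustered alone, 0.33 with cells classed by marker means and 0.56 without the cell richest in the gene, Lag3 there at 0.50 with at most 5% mitochondrial UMIs, and Lag3 at 0.31 in Siglech+ cells of the Cd209d+ Siglech+ cluster. The Cd8a ratio of the Ryr3+ Mdk+ cluster ranged over 3.59 to 4.52 on the log2 scale where there was a value. With each library clustered alone there was none, as L-cDC then had 0 cells in such a cluster, against 342 in M-cDC. Classing cells by marker means forms no clusters and gave no value either. The causes of the moves below were not tested.

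In the Cd209d+ Siglech+ cluster the log2 ratio of Cd8a was 1.81 at Leiden resolution 2.0, 2.65 with a minimum of 200 genes, 2.80 with each library clustered alone, 2.01 with the members among the variable genes and 2.80 in Siglech+ cells. That of Lag3 was 0.69, 1.51, 1.68 and 0.89 under the first 4 of these, and that of Cd4 was 2.07 at resolution 2.0. That of Cd8b1 was 2.0 with at most 5% mitochondrial UMIs, 4.84 with cells classed by marker means, 1.60 without Ly6d+ cells and 1.82 in Siglech+ cells without Ly6d. In cDC2-like cells that of Lag3 was 1.84 with each library clustered alone and 2.22 with cells classed by marker means.

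In cDC1-like cells the Cd8a log2 ratio was 0.35 (0.07 to 0.62) when thinned to 3000 UMIs and -0.10 with each library clustered alone. The share with Cd8a was 48.3% in L-cDC, against 38.7% in M-cDC when thinned, 79.7% in L-cDC by marker means and 83.1% in M-cDC clustered alone. The share of cDC2-like cells with Cd4 was 20.3% and 11.5% when thinned.

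In mature-like cells Cd8a was at 25.0 CPM in L-cDC, against 13.8 CPM in M-cDC without mitochondrial, ribosomal protein and immunoglobulin genes, 10.5 CPM in L-cDC without the Ryr3+ Mdk+ cluster and 16.8 CPM in L-cDC as a mean of per-cell CPM. Cd4 in L-cDC was at 1.35 CPM without that cluster, 3.31 CPM with a minimum of 200 genes, 1.68 CPM by marker means and 3.28 CPM when thinned. Cd4 in M-cDC was at 1.83 and 1.84 CPM at resolutions 0.5 and 2.0, 0.955 CPM without that cluster, 1.58 CPM with at most 5% mitochondrial UMIs, 1.06 CPM by marker means, 3.49 CPM when thinned and 3.34 CPM as a per-cell mean. Lag3 was at 1.09 CPM in L-cDC, against 0.955 CPM in M-cDC without that cluster, 1.01 CPM in M-cDC by marker means and 1.01 CPM in L-cDC when thinned.

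Siglech+, Ly6d+ and Ryr3+ Mdk+ settings, and the alternatives for Lag3 in cDC2-like cells, were added after seeing the data. Depth limits Cd8b1 most, with 39 UMIs in all M-cDC cells.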
